A study of Mus musculus with 20 samples.

Results

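The 10 immediate early genes described here are Fos, Fosb, Jun, Junb, Egr1, Egr2, Egr3, Nr4a1, Nr4a2 and Ier2, out of 17097 genes measured on 20 Affymetrix arrays of sorted mouse dermal fibroblasts. They were chosen by name rather than by a threshold on a measured value. A probe set, the group of short probes that reports 1 transcript, was kept when its annotation named 1 of these genes alone, which left 16 probe sets, and the one that was brightest on average across the 20 arrays stands for its gene. Each array holds the RNA of 10000 fibroblasts of 1 female mouse, amplified over 20 cycles, and there are 4 groups of 5 mice. Old CR-ND mice received 30% caloric restriction for 7 months and normal chow for the last 2 months. Old CR mice had the reverse order, 2 months of normal chow before 7 months at 30% restriction. Old ND mice ate normal chow without limit for 9 months. The mice of these 3 groups entered the diets at 9 months of age and were killed at 18 months. Young ND mice are labelled as 4 weeks old and as fed the normal diet for 4 weeks, so their exact age at collection is not settled by the labels. The labels name no strain, transgene or mutation. In every group the skin was cut free of the subdermis, chopped and digested with collagenase, and cells were sorted as positive for Pdgfra and CD34 and negative for the lineage markers CD45, CD31, CD117, CD24 and EpCAM. No undigested or unsorted skin is among the samples, so the part of digestion in the levels was not tested.

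Immediate early genes are switched on within minutes of a stimulus, without new protein synthesis, when kinases such as ERK and p38 activate transcription factors already bound at their promoters, among them SRF with its ELK partners and CREB. Most encode transcription factors themselves, which then act on slower sets of genes. Their mRNAs are short-lived, and feedback phosphatases and mRNA decay factors shut the response down. In fibroblasts they are the classic response to serum and growth factors, and they are also known to be induced while cells are freed from tissue by enzymes. The proteins fall into the AP-1 group (the FOS proteins Fos and Fosb, and their dimer partners Jun and Junb), the zinc finger factors Egr1, Egr2 and Egr3, the orphan nuclear receptors Nr4a1 and Nr4a2, and the nuclear protein Ier2.

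Values are deposited log2 levels, so a difference of 1 is a doubling in signal, and they span 2.71 to 13.46 with a median gene level of 5.88. Array medians lay between 5.27 and 5.34. The array numbers in the labels form 2 runs, of 13 and 7 arrays. The second run holds 1 Old CR array and 2 arrays of each of the other groups. With the groups in the model, 17.2% of all genes and 0 of the 10 immediate early genes differed between the runs (limma, adjusted p below 0.05). A count from 10 genes is too small to set the members apart from all genes here. The member closest to the threshold was Egr3 (second minus first run -0.20, adjusted p = 0.0948). The difference between the 3' and 5' control probe sets, a measure of RNA integrity, overlapped in all groups, at -0.89 to -0.74 for Actb in Old CR-ND, -0.85 to -0.70 in Old CR, -0.89 to -0.65 in Old ND and -0.82 to -0.64 in Young ND arrays. Of the sorted surface markers, Cd34 was at 10.79 to 11.44 on all 20 arrays, whereas Pdgfra, at 5.27 to 6.54, lay near the median gene level. The fibroblast matrix genes Dcn (13.08 to 13.36) and Col1a1 (12.61 to 13.37) lay near the top of the scale, and Ptprc, which encodes the CD45 used to exclude leukocytes, was at 3.13 to 3.42, below the lower quartile of gene levels (4.54). Because whole sorted samples were measured, fewer cells that express a gene and less RNA of it per cell cannot be told apart.

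The 3 members whose levels differed between groups in at least 1 test below, Egr2, Nr4a2 and Junb, and Nr4a1, which varied most closely with Nr4a2, are shown by the 250 bases before their RefSeq start (GRCm38.p6, 5′ to 3′ on the gene's strand). Capitals mark the CArG box, the SRF site, and the core of the cAMP response element, CGTCA or its reverse complement, which CREB proteins bind.
Egr2, chr10:67537619-67537868, plus strand: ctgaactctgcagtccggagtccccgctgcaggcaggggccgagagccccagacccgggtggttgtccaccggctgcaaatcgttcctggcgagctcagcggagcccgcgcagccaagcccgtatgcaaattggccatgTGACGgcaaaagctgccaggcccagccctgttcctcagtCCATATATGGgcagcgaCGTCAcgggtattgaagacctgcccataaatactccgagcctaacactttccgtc
Nr4a2, chr2:57124004-57124253, minus strand: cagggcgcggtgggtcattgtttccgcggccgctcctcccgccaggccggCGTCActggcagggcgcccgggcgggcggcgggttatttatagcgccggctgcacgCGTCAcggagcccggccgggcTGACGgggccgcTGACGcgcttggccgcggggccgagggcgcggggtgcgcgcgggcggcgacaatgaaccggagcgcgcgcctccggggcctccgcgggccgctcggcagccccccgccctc
Nr4a1, chr15:101266596-101266845, plus strand: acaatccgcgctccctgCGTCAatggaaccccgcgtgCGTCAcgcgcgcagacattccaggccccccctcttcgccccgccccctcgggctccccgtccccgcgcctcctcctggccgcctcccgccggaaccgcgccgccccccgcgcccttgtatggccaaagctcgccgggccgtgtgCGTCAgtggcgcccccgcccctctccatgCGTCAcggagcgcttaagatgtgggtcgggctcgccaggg
Junb, chr8:84978749-84978998, minus strand: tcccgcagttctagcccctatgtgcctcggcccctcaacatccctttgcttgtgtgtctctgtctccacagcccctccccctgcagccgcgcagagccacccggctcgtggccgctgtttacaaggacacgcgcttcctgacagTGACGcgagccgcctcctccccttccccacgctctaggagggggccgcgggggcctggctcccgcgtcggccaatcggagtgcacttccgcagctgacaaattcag
Egr2 has 5 start windows in the table, of which 3 overlap, counting the one shown. The window shown was chosen as the first to hold both motifs, with a CArG box 72 to 63 bases before the start and 2 CRE cores. Of the other Egr2 windows, the one from 67535249 holds 0 CArG boxes and 0 CRE cores. The one from 67537316 holds 1 CArG box and 0 CRE cores. The Nr4a1 and Nr4a2 windows hold 4 CRE cores each, and the Junb window holds 1.

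The promoter table holds 7 of the 10 members (Fos, Fosb, Jun, Junb, Egr2, Nr4a1 and Nr4a2). A gene was counted when any of its windows held the letters, whereas the percentages count single windows. Searched on both strands in the same 250 bases, the CRE core CGTCA was present in 6 of these 7 genes, all except Jun. By window, it was present in 8 of the 11 windows of members and in 17.8% of 32851 promoter windows. The full element TGACGTCA, which contains the core, was present in 0 of 7 and in 1.55% of windows. A CArG box was found in Egr2 alone, in 4 of the 11 windows of members, some of which overlap, against 1.47% of windows. The ETS letters CCGGAA were found in Egr2 and Nr4a1 (12% of windows), and the EGR letters GCGNGGGCG in Fosb, Nr4a1 and Nr4a2 (4.7%). The AP-1 letters TGANTCA (6.75%) and the NR4A element AAAGGTCA (1.34%) were found in 0 of the 7. These matches describe the letters in 1 short window per start and not a bound site.

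Across the groups, Egr2 differed in 3 comparisons, Nr4a2 in 1 and Junb in 1, and the other 7 members passed the test in none. In Old ND against Young ND fibroblasts, Egr2 and Nr4a2 rose and 8 members did not pass. In Old CR against Old ND fibroblasts, Egr2 fell and 9 did not pass. In Old CR-ND against Old ND and Old CR-ND against Old CR, 0 of 10 passed. Egr2 rose in Old CR-ND and Junb rose in Old CR when each was set against Young ND. Passing means an adjusted p below 0.05 in limma's moderated test over all 17097 genes, which all 6 comparisons used.

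**Figure D1:**
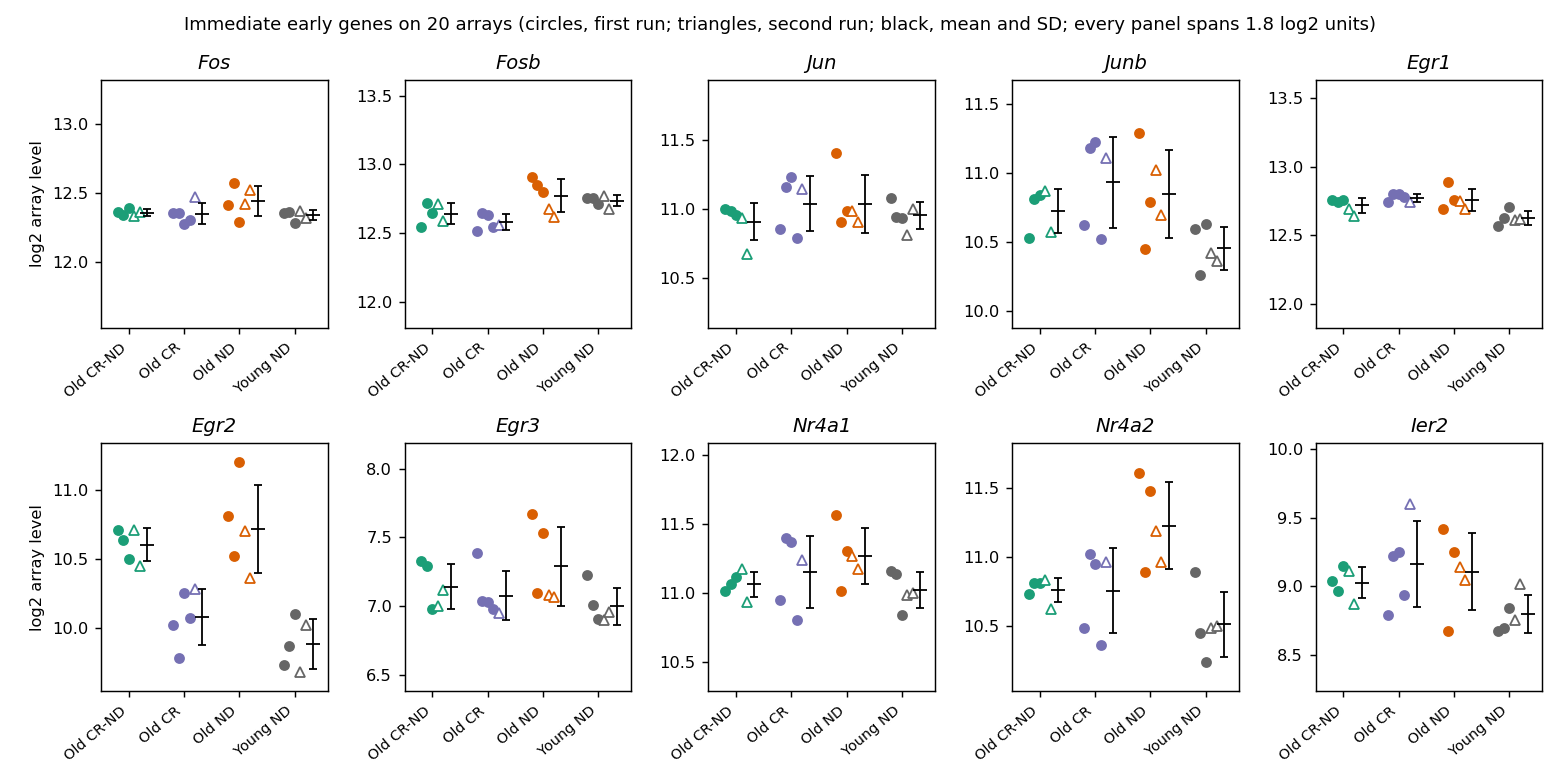
Log2 array level (y axis) of each immediate early gene on 20 arrays, with Old CR-ND, Old CR, Old ND and Young ND along the x axis, circles for the first run of array numbers, triangles for the second and the black mark for mean and SD (n = 5). Each panel spans the same range of log2 units. All 5 Old ND arrays of Egr2 (10.36 to 11.20) lie above the 5 Young ND arrays (9.68 to 10.10), while the Fos, Fosb and Egr1 arrays lie close together.

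The background differed widely between comparisons. Of all genes, 10.9% passed in Old ND against Young ND (4.45% higher), and 2 of 10 members did, both higher. The change was positive for 10 of 10 members, with a median of 0.27 against 0.00 over all genes, and 7 had an unadjusted p below 0.05. For Old CR against Old ND, 2.39% of genes passed (0.819% lower) and 1 of 10 members, which was lower. There the change was negative for 6 members, with a median of -0.11 against 0.00 over all genes. In Old CR-ND against Old ND, 0.00585% of genes passed, and with 0 of 10 members called by limma, 10 of 10 had a negative change (median -0.12 against 0.00 over all genes) and 2 an unadjusted p below 0.05. In Old CR-ND against Old CR, 0.333% of genes passed, and of the 10 members, none of them called by limma, 1 had an unadjusted p below 0.05. Against Young ND, 12.7% of genes passed in Old CR (7.11% higher) and 7.04% in Old CR-ND (3.22% higher), with 1 of 10 members in each, both higher. These comparisons share groups: the Old ND arrays enter the first 3, and the Young ND arrays enter those with Young ND. The share of all genes with an unadjusted p below 0.05 was not counted, so the unadjusted counts here and below have no background beside them. Some members also varied together within groups, so their signs are not separate readings. Without Old ND replicate 2, the count in Old ND against Young ND was 4, with Junb (0.50, adjusted p = 0.0388) and Ier2 (0.42, adjusted p = 0.0407) added. Without Old ND replicate 5, the count in Old CR against Old ND was 2, with Fosb (-0.23, adjusted p = 0.0498) added.

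**Figure D2:**
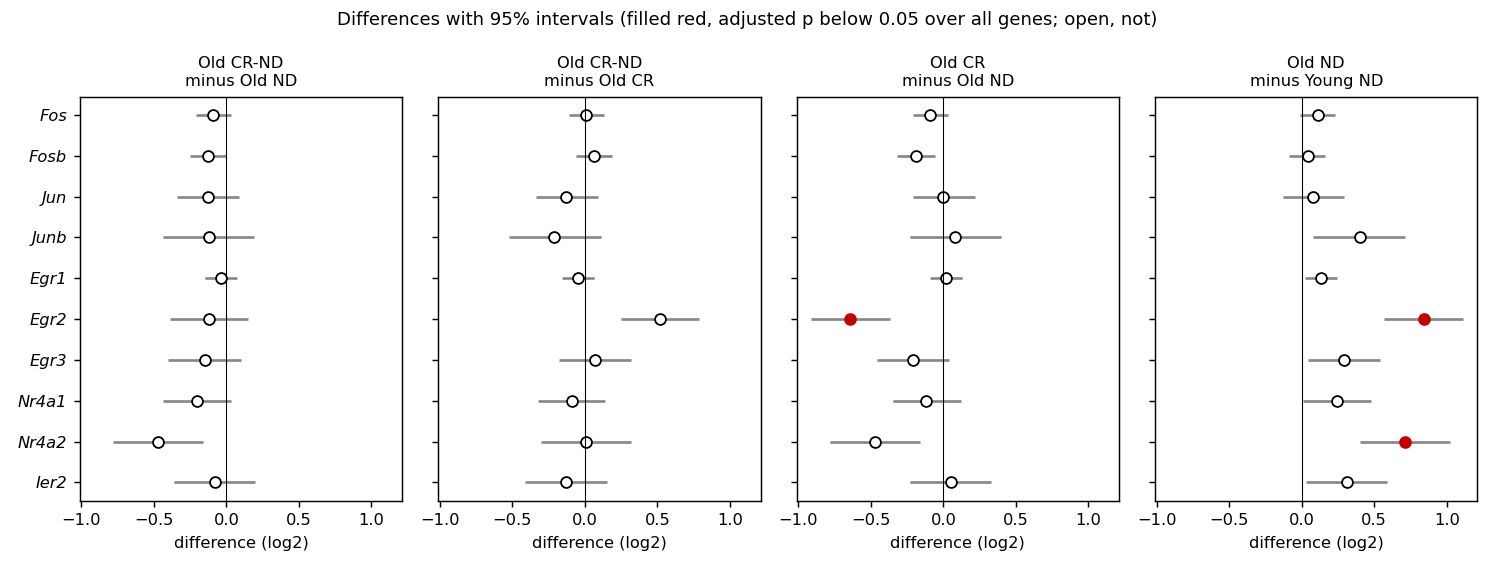
Differences in log2 level (x axis) of the 10 members (y axis) with 95% intervals from limma, for Old CR-ND minus Old ND, Old CR-ND minus Old CR, Old CR minus Old ND and Old ND minus Young ND. Filled red points passed an adjusted p of 0.05 over all genes: Egr2 at -0.64 in Old CR minus Old ND, and Egr2 at 0.84 and Nr4a2 at 0.71 in Old ND minus Young ND.

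Egr2, a zinc finger factor known for its role in myelinating Schwann cells and also induced by serum in fibroblasts, had the clearest group pattern. Its levels were 10.71, 10.64, 10.50, 10.71 and 10.45 on the Old CR-ND arrays, 10.02, 9.78, 10.25, 10.07 and 10.28 on the Old CR arrays, 10.81, 10.52, 11.20, 10.70 and 10.36 on the Old ND arrays and 9.73, 9.87, 10.10, 9.68 and 10.02 on the Young ND arrays. The Old CR-ND and Old ND arrays overlapped and lay high, the Old CR and Young ND arrays overlapped and lay low, and no array of the high pair fell within the range of the low pair. The pairs were named after the levels were seen, and the share of all genes with this joint pattern was not counted. For 2 groups at a time, ranges of 5 arrays lay apart, in either direction, for 7.38% of genes in Old ND against Young ND. In Old CR against Old ND the share was 3.23%, and Egr2 was the 1 member with ranges apart in each. Egr2 rose by 0.84 ± 0.13 (SE, adjusted p = 0.000153) in Old ND, 1.79 times the Young ND level, with means of 10.72 ± 0.32 in Old ND and 9.88 ± 0.18 in Young ND (SD, n = 5 each). Old CR-ND, at 10.60 ± 0.12, also rose against Young ND, by 0.72 ± 0.13 (adjusted p = 0.00122), with ranges apart as for 6.59% of all genes. In Old CR, at 10.08 ± 0.20, Egr2 fell by 0.64 ± 0.13 on the log2 scale against Old ND (adjusted p = 0.0119), to 0.643 of the Old ND level.

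Both of these rises of Egr2 over Young ND passed within each run. Old ND minus Young ND was 0.94 (adjusted p = 0.00235) on the first-run arrays and 0.68 (adjusted p = 0.0394) on those of the second, and Old CR-ND minus Young ND was 0.72 (adjusted p = 0.0213) and 0.73 (adjusted p = 0.0403). The fall in Old CR against Old ND was -0.81 on first-run arrays (adjusted p = 0.00932) and -0.25 on second-run arrays (adjusted p = 0.997), where the group is 1 Old CR array and its spread is taken from the other groups. Whether the runs differ was not tested. The fall also missed the threshold when only these 2 groups were fitted (-0.64, adjusted p = 0.063). Neighbours in the order of the group means were close: Old CR-ND minus Old ND was -0.12 (95% interval -0.39 to 0.15, adjusted p = 0.998) and Old CR minus Young ND was 0.20 (-0.07 to 0.47, adjusted p = 0.382). The step between the pairs, Old CR-ND minus Old CR, was 0.52 (0.25 to 0.79) with an adjusted p of 0.0898, although the ranges did not overlap, as for 2.17% of all genes. It passed with a second quantile normalization (0.58, adjusted p = 0.0419), with array weights (0.52, adjusted p = 0.0283) and with only these 2 groups in the fit (0.52, adjusted p = 0.0457). In the fit of all probe sets, the other Egr2 probe set gave 0.90 in Old ND against Young ND (adjusted p = 0.000109), -0.75 in Old CR against Old ND (adjusted p = 0.00541) and 0.60 in Old CR-ND against Old CR (adjusted p = 0.0629).

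Egr1 and Egr3, the close relatives of Egr2, did not pass in any comparison. Egr1, the factor most often used as a readout of ERK signalling, was at 12.72 ± 0.05 in Old CR-ND, 12.77 ± 0.03 in Old CR, 12.76 ± 0.08 in Old ND and 12.63 ± 0.05 in Young ND. Its 5 Old CR arrays (12.74 to 12.80) lay above the 5 Young ND arrays (12.57 to 12.71), a separation that 10.4% of all genes showed in either direction. The difference was 0.14 (95% interval 0.03 to 0.25, adjusted p = 0.0817), and it passed with array weights (adjusted p = 0.0386) and with the mean of the probe sets of each gene (adjusted p = 0.0479). Egr3, which calcium signals induce in lymphocytes and which muscle spindles need to form, was at 7.14 ± 0.16 in Old CR-ND, 7.08 ± 0.18 in Old CR, 7.29 ± 0.29 in Old ND and 7.00 ± 0.13 in Young ND. The highest Egr3 values were those of Old ND replicates 1 and 3 (7.67 and 7.53), and the other Old ND arrays, at 7.07 to 7.10, lay within the Young ND range of 6.90 to 7.23.

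Nr4a2, an orphan receptor known for its part in making dopamine neurons and widely induced by cAMP and inflammatory signals, rose in Old ND against Young ND. Its levels were 10.73, 10.81, 10.81, 10.83 and 10.62 on the Old CR-ND arrays, 10.48, 11.02, 10.95, 10.36 and 10.96 on the Old CR arrays, 11.61, 10.89, 11.48, 11.19 and 10.96 on the Old ND arrays and 10.89, 10.45, 10.24, 10.48 and 10.50 on the Young ND arrays. Old ND and Young ND touched at 10.89, the lowest Old ND and the highest Young ND value, and the Old CR arrays fell into 3 high and 2 low ones. The difference was 0.71 ± 0.15 (SE, adjusted p = 0.00277), 1.64 times the Young ND level, and first-run arrays alone gave 0.80 (adjusted p = 0.0331) and second-run arrays 0.58 (adjusted p = 0.0302). Against Old ND, Old CR-ND was lower by the same amount as Old CR, at -0.47 each, with adjusted p = 0.764 for Old CR-ND and adjusted p = 0.106 for Old CR. The Old CR-ND arrays lay wholly below the Old ND arrays, as 0.48% of all genes did in either direction in that comparison. For Old CR the difference passed after a second quantile normalization (-0.52, adjusted p = 0.0453). Nr4a2 has 5 probe sets, and they disagreed by brightness. The other probe sets with means of 10.19 and 8.92 gave 0.78 (adjusted p = 0.009) and 1.03 (adjusted p = 0.00621) in Old ND against Young ND, whereas those with means of 6.54 and 5.68 gave 0.05 (adjusted p = 0.787) and 0.14 (adjusted p = 0.538).

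Nr4a1, the related receptor named Nur77, was at 11.07 ± 0.09 in Old CR-ND, 11.15 ± 0.26 in Old CR, 11.27 ± 0.20 in Old ND and 11.03 ± 0.13 in Young ND. Its largest difference was Old ND minus Young ND, 0.24 (95% interval 0.01 to 0.48, adjusted p = 0.19). It passed there after a second quantile normalization (0.31, adjusted p = 0.0353), and the ranges overlapped, at 11.02 to 11.57 in Old ND and 10.84 to 11.16 in Young ND.

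Junb, a JUN protein that often restrains Jun, was at 10.53, 10.81, 10.84, 10.87 and 10.57 on the Old CR-ND arrays, 10.62, 11.18, 11.22, 10.52 and 11.11 on the Old CR arrays, 11.29, 10.45, 10.79, 11.02 and 10.69 on the Old ND arrays and 10.59, 10.26, 10.63, 10.42 and 10.36 on the Young ND arrays. Old CR and Old ND were more widely spread (SD 0.33 and 0.32) than Old CR-ND and Young ND (SD 0.16 each), and each Old group overlapped the Young ND range of 10.26 to 10.63. Junb rose in Old CR against Young ND by 0.48 ± 0.15 (SE, adjusted p = 0.0403), with means of 10.93 ± 0.33 in Old CR and 10.45 ± 0.16 in Young ND. This call ended when any 1 of 6 arrays was left out, Old CR replicates 2, 3 and 5 and Young ND replicates 2, 4 and 5 (adjusted p between 0.0769 and 0.113), after centring each array on its median (0.44, adjusted p = 0.0714), and with the arrays of 1 run alone (0.39, adjusted p = 0.306, and 0.72, adjusted p = 0.0715). The difference of Old ND from Young ND was 0.40 (0.08 to 0.71, adjusted p = 0.103), and it passed after a second quantile normalization (0.49, adjusted p = 0.0228). Leaving out replicate 2 of Old ND, it was 0.50 (adjusted p = 0.0388).

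Jun, the central AP-1 subunit, had group means within a narrow span, 10.91 ± 0.13 in Old CR-ND, 11.03 ± 0.20 in Old CR, 11.03 ± 0.21 in Old ND and 10.95 ± 0.10 in Young ND, with ranges that overlapped in every comparison. The high end of Old ND was 1 array, replicate 1 at 11.40, and the other 4 lay at 10.90 to 10.98. The 2 Jun probe sets differed in Old CR against Old ND, where the brighter one gave 0.00 (95% interval -0.21 to 0.22, adjusted p = 0.996) and the other -0.33 (adjusted p = 0.167).

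Fos and Fosb, the FOS subunits that bind DNA only as dimers with JUN proteins, lay near the top of the scale, as did Egr1. The highest Fos, Fosb and Egr1 values were 0.83, 0.49 and 0.51 below the highest value of any of the 17097 genes. Their SD within groups was 0.07, 0.08 and 0.06, against a median of 0.15 over all genes and 0.09 over the 46 genes with a mean above 12. Whether signal near the top of the scale compresses their differences was not tested. Fos was at 12.36 ± 0.02 in Old CR-ND, 12.35 ± 0.08 in Old CR, 12.44 ± 0.11 in Old ND and 12.34 ± 0.04 in Young ND, and its intervals bound the difference of Old ND from Young ND to between -0.01 and 0.23. Fosb was at 12.55, 12.72, 12.65, 12.71 and 12.59 on the Old CR-ND arrays, 12.52, 12.65, 12.63, 12.55 and 12.56 on the Old CR arrays, 12.91, 12.85, 12.80, 12.68 and 12.62 on the Old ND arrays and 12.76, 12.76, 12.71, 12.77 and 12.68 on the Young ND arrays. The Old CR arrays of Fosb (highest 12.65) lay below the Young ND arrays (lowest 12.68), ranges apart as for 10.4% of all genes, and they overlapped the Old ND arrays. The difference was -0.15 against Young ND (adjusted p = 0.109) and -0.19 against Old ND (adjusted p = 0.112), and the first passed when arrays were centred on their median (-0.19, adjusted p = 0.0455).

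Ier2, a nuclear protein of the early growth response, was at 9.03 ± 0.11 in Old CR-ND, 9.16 ± 0.31 in Old CR, 9.11 ± 0.28 in Old ND and 8.80 ± 0.14 in Young ND. Old CR minus Young ND was 0.36 (95% interval 0.08 to 0.64, adjusted p = 0.0887) and Old ND minus Young ND was 0.31 (0.03 to 0.59, adjusted p = 0.166). Both ranges overlapped that of Young ND (8.68 to 9.02), and Old CR spanned 8.79 to 9.60. The first difference passed without Old CR replicate 1 (0.45, adjusted p = 0.031), after a second quantile normalization (0.38, adjusted p = 0.0421) and with array weights (0.36, adjusted p = 0.0326). The second passed after a second quantile normalization (0.39, adjusted p = 0.0358) and when replicate 2 of Old ND was left out (0.42, adjusted p = 0.0407).

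Within groups, some members varied together from array to array. The labels give no collection day per array, so the part of a shared day was not tested. After the group mean was removed from each array, 7 of the 45 pairs of members passed a two-sided permutation test over 20 arrays (100000 permutations within groups, Benjamini-Hochberg over the 45 pairs), 13 had an unadjusted p below 0.05, and all 7 that passed were positive. They were the 6 pairs among Jun, Junb, Nr4a1 and Nr4a2, and Junb with Ier2. Nr4a1 and Nr4a2 gave the highest value, Pearson's r of 0.91 (permutation p = 1e-05, the smallest that these permutations can give, adjusted p = 0.00045) and Spearman's rho of 0.89 (permutation p = 2e-05, adjusted p = 0.0009). Without the 2 arrays farthest from the median of Nr4a1 the value of r was 0.87, and the 2 runs gave 0.92 and 0.89. Jun with Nr4a1 gave r = 0.84 (permutation p = 0.00035, adjusted p = 0.00525) and rho = 0.82, and r was 0.76 without the 2 farthest arrays. Junb with Ier2 gave r = 0.72 (permutation p = 0.00647, adjusted p = 0.0416) and rho = 0.70, and r was 0.84 and 0.52 within the 2 runs. Second-run values rest on 7 arrays in 4 groups. Once group means are removed there, the 1 Old CR array has no deviation left and each other group is 1 pair of mirrored values. These values therefore cannot show whether the runs agree. Without Old ND replicate 1, which was the highest array for Jun, Junb, Nr4a1 and Nr4a2, 3 pairs passed, and 3 passed when the run was removed as well.

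**Figure D3:**
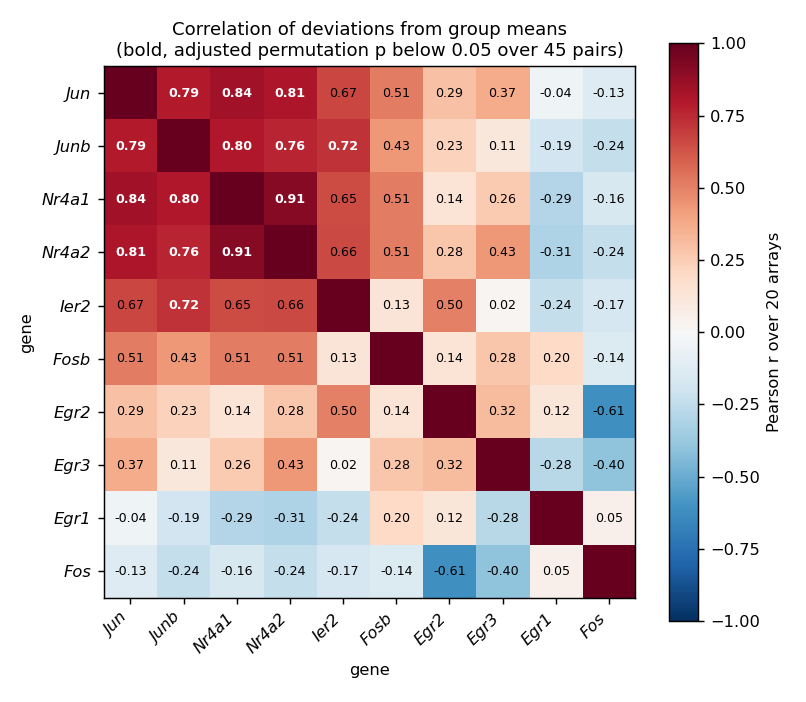
Pearson's r (colour and number) between the deviations of each pair of members (x and y axes) from their group means over 20 arrays, with bold numbers for pairs that passed the adjusted permutation test. Jun, Junb, Nr4a1 and Nr4a2 form the block of values between 0.76 and 0.91, and the Egr1 and Fos rows stay between -0.61 and 0.20.

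Egr2, with the clearest group pattern, was in 0 of the 7 pairs, and its median r with the other 9 members was 0.23. Fos had a median r of -0.17 and passed with 0 of 9, and its lowest value, with Egr2, was r = -0.61 (permutation p = 0.0378, adjusted p = 0.142) and rho = -0.61 (permutation p = 0.0146, adjusted p = 0.0728). That value was -0.37 without the 2 arrays farthest from the median of Fos. The mean scaled deviation of the 10 members was highest on Old ND replicate 1 (1.22) and lowest on Old CR replicate 4. Keratinocyte markers were also high on Old ND replicate 1, at a mean level of 8.02, against 5.76 to 6.85 on the other Old ND arrays. This rests on 1 array. Old ND replicate 3, next in its group by mean scaled deviation (0.33), had the lowest keratinocyte mean (5.76). The part of these markers in the result was not tested. The 5 genes outside the list whose deviations followed the members' mean most closely over the 20 arrays were Rgs2 (r = 0.88), which dampens G protein signals, the MAP kinase phosphatase Dusp1 (0.88), the third receptor of the NR4A family, Nr4a3 (0.85), the survival factor Mcl1 (0.84) and the small GTPase Gem (0.81). These are given as a description, with no test, and the arrays share their normalization.

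The genes around this response were counted in lists. Of all genes, 10.9% passed in Old ND against Young ND (4.45% higher) and 2.39% in Old CR against Old ND (0.819% lower). Of 17 other immediate early transcription factors, 2 rose and 1 fell in Old ND against Young ND (median 0.21 against 0.00 over all genes). The HLH inhibitors Id1 (0.99, adjusted p = 0.0214) and Id3 (0.42, adjusted p = 0.0415) rose, and the zinc finger factor Klf6 fell (-0.32, adjusted p = 0.0299). Of 20 measured other immediate early proteins, 4 rose: the synaptic scaffold Arc (1.30, adjusted p = 0.00535), the matricellular protein Ccn2 (0.77, adjusted p = 0.000506), the stress protein Gadd45b (0.43, adjusted p = 0.0106) and Ier3 (0.34, adjusted p = 0.0178). Arc was at 7.94 ± 0.77 in Old ND and 6.64 ± 0.31 in Young ND, and its arrays did not overlap, as for 7.38% of all genes. Under restriction, in Old CR against Old ND, the first list had 1 fall, the TGF-beta inducible Klf10 (-0.97, adjusted p = 0.0125), and the second had 1 rise, Gadd45g (0.57, adjusted p = 0.0166), and 1 fall, Ccn2 (-0.51, adjusted p = 0.0482).

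Of 17 measured feedback inhibitors, 3 fell in Old CR against Old ND, where 0.819% of all genes fell: Spry4 (-1.02, adjusted p = 0.0431), Dusp6 (-0.74, adjusted p = 0.0415) and the NF-kappa B inhibitor Tnfaip3 (-0.86, adjusted p = 0.0484). Spry4 and Dusp6 act on receptor signalling and on ERK. Dusp6 was dim, at 3.69 in Old CR and 4.42 in Old ND, below the lower quartile of gene levels (4.54). The filters on dim genes left it out, so it had 19 alternatives. These calls lay close to the threshold and ended under 10 of 21 alternatives for Spry4, 10 of 21 for Tnfaip3 and 10 of 19 for Dusp6. On second-run arrays alone the differences were -0.21 for Spry4, -0.11 for Tnfaip3 and -0.39 for Dusp6 (adjusted p = 0.997 each). In Old ND against Young ND 1 rose, the mRNA decay factor Zfp36l2 (0.56, adjusted p = 0.0158). Of 21 measured receptors and MAP kinase cascade genes, 5 fell in Old ND against Young ND, where 10.9% of all genes passed in either direction. Among them were the adaptor Grb2 (-0.38, adjusted p = 0.00722) and the ERK kinases Map2k1 (-0.35, adjusted p = 0.00965) and Map2k2 (-0.50, adjusted p = 0.00832). The receptor Egfr was the 1 of the 21 that rose in Old CR against Old ND (0.60, adjusted p = 0.0296), a call that ended under 8 of 21 alternatives. Of 15 measured upstream factors, Srf rose (0.49, adjusted p = 0.0358) and Mef2a fell (-0.66, adjusted p = 0.000814) in Old ND against Young ND, and 0 passed by limma in Old CR against Old ND, with 3 at an unadjusted p below 0.05.

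**Figure D4:**
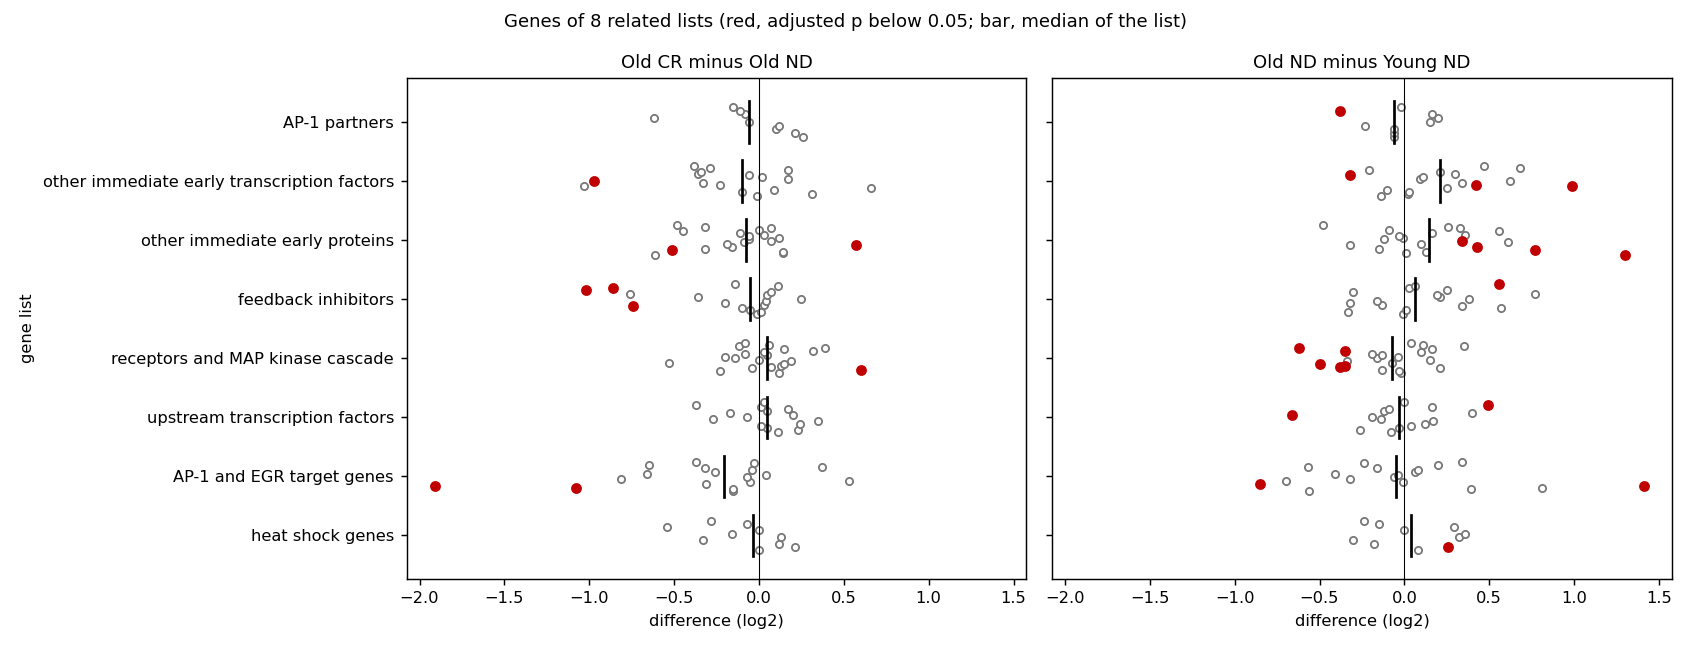
Differences in log2 level (x axis) of the genes in 8 lists related to the immediate early response (y axis), for Old CR minus Old ND and for Old ND minus Young ND, with red points for an adjusted p below 0.05 and a bar at each list's median. Most points are open, and the farthest red points in both panels are the chemokine Cxcl2, at -1.91 and 1.41.

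Of 18 measured AP-1 and EGR target genes, 2 neutrophil chemokines fell in Old CR against Old ND, where 0.819% of all genes fell. They were Cxcl2 (-1.91, adjusted p = 0.00361) and Cxcl1 (-1.08, adjusted p = 0.0487). In Old ND against Young ND, Cxcl2 rose (1.41, adjusted p = 0.00585) and the heme oxygenase Hmox1 fell (-0.85, adjusted p = 0.00838). Cxcl2 was at 5.47 ± 0.16 in Old CR-ND, 4.33 ± 0.46 in Old CR, 6.24 ± 0.89 in Old ND and 4.83 ± 0.51 in Young ND. Of 9 AP-1 partners, 1 fell in Old ND against Young ND, the repressor Jdp2 (-0.38, adjusted p = 0.0367), and 0 passed by limma in Old CR against Old ND, with 2 at an unadjusted p below 0.05. In Old CR-ND against Old ND and against Old CR, 0 genes of these lists passed by limma. The unadjusted counts reached 4 of 17 feedback inhibitors in the first of these and 4 of 18 target genes in the second. Other list calls also ended under many of 21 alternatives, 13 for Cxcl1 and 12 for Ccn2 in Old CR against Old ND, and 12 for Id3, 11 for Klf6, 10 for Jdp2 and 8 for Srf in Old ND against Young ND.

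Heat shock genes are induced in many cells by handling and warming, and 10 of the 13 listed were measured. Their mean level was 10.16 ± 0.29 in Old CR-ND, 10.03 ± 0.06 in Old CR, 10.12 ± 0.11 in Old ND and 10.08 ± 0.16 in Young ND, with ranges that overlapped between groups. In Old ND against Young ND 1 of the 10 rose, the co-chaperone Dnaja1 (0.26, adjusted p = 0.0488, a call ended by 14 of 21 alternatives), and 0 passed by limma in Old CR against Old ND, with 3 at an unadjusted p below 0.05. In Old CR against Young ND, where Junb rose, Dnaja1 (0.46, adjusted p = 0.00059) and the chaperone Hsp90aa1 (0.45, adjusted p = 0.0195) rose and Dnajb4 fell (-0.63, adjusted p = 0.00779). Of all genes, 12.7% passed in that comparison (7.11% higher).

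**Figure D5:**
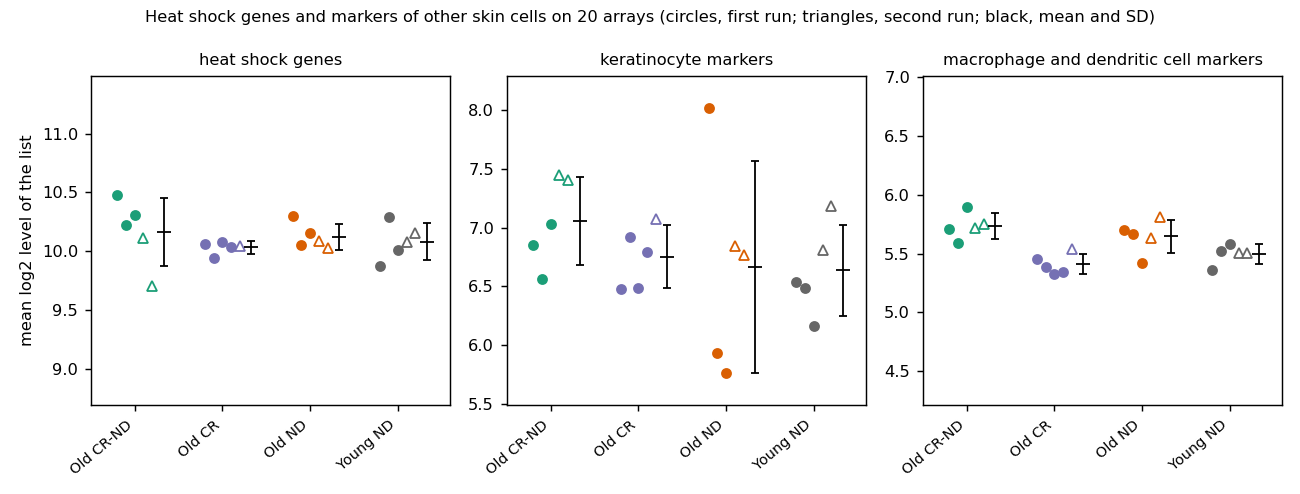
Mean log2 level (y axis) of the 10 heat shock genes, the 11 keratinocyte markers and the 8 macrophage and dendritic cell markers on each array, by group along the x axis, with circles for the first run, triangles for the second and the black mark for mean and SD (n = 5). The keratinocyte markers of Old ND run widest, with replicate 1 at 8.02, and the macrophage markers of Old CR (5.33 to 5.54) lie below those of Old CR-ND (5.59 to 5.90).

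Markers of other skin cells were read beside the calls. Of 11 keratinocyte markers, 0 passed by limma in any of the 6 comparisons (at most 1 at an unadjusted p below 0.05 in each), and their mean was 7.06 ± 0.38 in Old CR-ND, 6.75 ± 0.27 in Old CR, 6.67 ± 0.90 in Old ND and 6.64 ± 0.38 in Young ND. The mean of the 8 macrophage and dendritic cell markers was 5.73 ± 0.11 in Old CR-ND, 5.41 ± 0.09 in Old CR, 5.65 ± 0.14 in Old ND and 5.50 ± 0.08 in Young ND. This mean was lower in Old CR and Young ND, as Egr2 was, but Young ND (5.36 to 5.58) overlapped Old ND (5.42 to 5.81). The markers did not all share this order. H2-Ab1 did, at 8.04 in Old CR-ND, 6.86 in Old CR, 7.89 in Old ND and 7.23 in Young ND. In contrast, Csf1r was highest in Young ND (7.68) and Cd68 in Old CR (7.76). Of these 8, Cd74 fell (-0.61, adjusted p = 0.0276) in Old CR against Old ND, while in Old ND against Young ND Cd74 rose (0.48, adjusted p = 0.0372) and Csf1r fell (-1.20, adjusted p = 1.41e-07). The Cd74 calls ended under 8 of 21 alternatives in Old CR against Old ND and under 11 of 21 in Old ND against Young ND, and that of Csf1r under 0. Ptprc stayed at 3.24 to 3.26 as a group mean, 3 of the 8 markers lay below the lower quartile of gene levels in every group, and the part of these cells in the Egr2 result was not tested. In Old ND against Young ND, 3 of 6 endothelial markers had a positive difference and 3 a negative one (median 0.02). The receptor Tek rose (1.02, adjusted p = 0.0239), while Kdr was at -0.91 (adjusted p = 0.0635) and Cldn5 at -0.21 (adjusted p = 0.0774). In the same comparison, 10.9% of all genes passed in either direction. Of 4 measured pericyte and smooth muscle markers, 1 fell, the muscle filament gene Des (-0.35, adjusted p = 0.0407), and 2 had a positive difference (median -0.00). Among 10 fibroblast markers, 3 fell: Col1a1 (-0.48, adjusted p = 0.000264), Col3a1 (-0.27, adjusted p = 0.00808) and Cd34 (-0.30, adjusted p = 0.0303). A positive difference was seen for 4 fibroblast markers, the sorted marker Pdgfra among them (median of the list -0.09). Of 21 alternatives each, 8 ended the call of Tek, 12 that of Des and 9 that of Cd34. The T cell, mast cell, melanocyte, Schwann cell, skeletal muscle and adipocyte lists had 0 genes called by limma in any comparison, with at most 1 gene of each at an unadjusted p below 0.05.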

How the data were processed

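One array per mouse was analysed, 20 in all, grouped by their labels. The authors deposited log2 expression levels per probe set, made with RMA from the affy package per the submitters' processing notes, with versions not given in the sources used here. RMA makes the distributions of the arrays alike, so a change shared by most genes is not visible. Of 45141 probe sets, 28898 named 1 gene in GEO's platform annotation, 551 several and 15692 none. Symbols were updated by Entrez number for 28689 of them against RefSeq (GRCm38.p6). Arrays have no read depth, and their number limits the precision.

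The brightest probe set per gene was kept, with no filter on dim genes. A model with a mean for each group was fitted to all 20 arrays (R 4.3.3, limma 3.58.1, functions lmFit and eBayes), with 16 residual and 4.19 prior degrees of freedom. Tests are two-sided, and the Benjamini-Hochberg adjustment covers 17097 genes. Intervals are limma's 95% intervals. The script was tested on simulated data. Correlations, ranges and motifs used Python 3.11.15 with numpy 2.4.6, scipy 1.17.1 and pandas 2.3.3.

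The members and lists were chosen with earlier results of these data known. Every member is named, with up to 4 called genes per related list and comparison, the genes called among markers, and the 5 genes most like the members' mean. Genes listed but not measured by a probe set of their own were not analysed here. Alternatives changed the probe set rule, a filter on dim genes, normalization, variance model, array weights, run, groups in the fit, threshold and the arrays included.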

Additional observations from a re-analysis of the deposited data

Results flagged for a closer look

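In 3 of the 40 sets of 5 arrays (10 genes in 4 groups), 1 array stood farther from the next than Dixon's 95% critical value of 0.71 for the ratio of gap to range allows, and chance flags about 1 in 20 sets. Jun was at 10.67 on Old CR-ND replicate 5, against 10.93 or higher on the other Old CR-ND arrays (ratio 0.788). It was at 11.40 on Old ND replicate 1, against 10.90 to 10.98 on the other Old ND arrays (ratio 0.840). Egr3 was at 7.39 on Old CR replicate 1, against 6.95 to 7.04 on the other Old CR arrays (ratio 0.795).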

How the results depend on the processing

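Counts of called members that moved are given by comparison, and the cause was not tested unless fewer arrays or a stricter threshold make it. In Old ND against Young ND (2), a second quantile normalization gave 5, and leaving out 1 array gave 2 to 4. In Old CR against Old ND (1), a second quantile normalization gave 2, the second run alone 0, only these 2 groups 0, an adjusted p of 0.01 gave 0, and leaving out 1 array gave 1 to 2. In Old CR-ND against Old CR (0), a second quantile normalization, array weights, only these 2 groups and an adjusted p of 0.1 gave 1 each. In Old CR against Young ND (1), the mean of all probe sets gave 2, a second quantile normalization 2, array weights 3, the first run 0, the second run 0, an adjusted p of 0.1 gave 3 and of 0.01 gave 0, and leaving out 1 array gave 0 to 2. The counts in Old CR-ND against Old ND and against Young ND stayed at 0 and 1 under the alternatives run. Of the pairs of members that varied together (7), 3 passed with the run removed and 3 to 10 with 1 array left out. The calls of Egr2 and Nr4a2 in Old ND against Young ND held in every fit that left out 1 array (highest adjusted p 0.000668 and 0.01). Of the list genes picked out in each comparison, 3403 results under alternatives kept their side of the threshold, 301 lost a call and 36 gained one. A called difference changed sign in 1 result, Mmp3 in Old CR against Young ND in the second run (0.10). Sign changes of differences that passed in neither fit were not counted. No paired analysis was possible because the labels number no replicates and give no collection day per array. Array signal near the top of the scale, 5 mice a group and the Old CR share of the second run, 1 array, limit what these data can show.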
